A study of Mus musculus with 12 samples.

Results

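The clustered protocadherins are the cell-surface adhesion molecules encoded by the *Pcdha*, *Pcdhb* and *Pcdhg* gene clusters, which lie one after the other on mouse chromosome 18. Members were all genes whose symbol, looked up from the NCBI gene identifier, starts with *Pcdha*, *Pcdhb* or *Pcdhg* followed by a member number or letter. This gave 58 of the 45777 identifiers in the tables, with 14 genes in the alpha cluster, 22 in the beta cluster and 22 in the gamma cluster. In mm10 coordinates the alpha genes span 36930285 to 37188897, the beta genes 37264998 to 37521419 and the gamma genes 37661775 to 37841873, all on the plus strand. The study asked what is lost when MNs (motor neurons) lack *Isl2*, a LIM-homeodomain transcription factor of postmitotic MNs, and sequenced total RNA of the E12.5 ventral spinal cord at the brachial and lumbar levels. Each of the 4 groups held 3 libraries.

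Each clustered protocadherin of the alpha and gamma clusters has its own promoter and its own large exon for the extracellular and membrane-spanning parts, which is spliced to constant exons shared by the whole cluster. Beta genes consist of a single exon and have no constant part. In many neurons each cell expresses a small, partly random set of alpha, beta, gamma A and gamma B genes, while the last genes of the alpha and gamma clusters, called C-type, are switched on by other means. The proteins pair on one cell and bind their own kind on the next, which lets branches of one neuron recognise each other, and loss of the gamma genes is known to cause death of spinal interneurons. The members are described below by these classes: alpha (12 genes), beta (22 genes), gamma A (12 genes), gamma B (7 genes) and C-type (5 genes, *Pcdhac1*, *Pcdhac2*, *Pcdhgc3*, *Pcdhgc4* and *Pcdhgc5*).

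The control group at each level was *Isl2* +/- (Het) and the mutant group *Isl2* -/- (KO), a deletion present in every cell of the embryo. All embryos carried the Hb9::GFP reporter, which labels MNs and around which the tissue was trimmed, so the controls lack 1 copy of *Isl2* and no group is wild type. *Isl2* itself was at 8.73, 8.33 and 9.72 TPM in the brachial Het libraries against 6.04, 7.28 and 4.47 in KO, and at 10.3, 8.43 and 9.43 against 7.33, 6.53 and 8.24 at the lumbar level. KO lay below Het at both levels without reaching 0, and the value of the whole gene also counts RNA from parts outside the deleted exons. The libraries held 4.48 to 6.64 Gb of aligned bases and 22983 to 24191 genes above 0, with brachial KO 3 the shallowest. Motor neuron markers (11 genes, all detected) summed to 545 to 562 TPM in brachial Het, 499 to 530 in brachial KO, 296 to 388 in lumbar Het and 234 to 321 in lumbar KO. *Prph*, which encodes an intermediate filament, moved most in these sums (310 TPM in brachial Het, 260 in brachial KO, 61.9 in lumbar Het and 35.4 in lumbar KO), while 7 of the 11 markers had a log2 fold change above 0 in brachial KO (median 0.08). The tissue holds progenitors, interneurons, vessels and blood beside MNs, so a value here is an average over all of them, and fewer cells of a type and less RNA per cell cannot be told apart.

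The members were expressed at low levels, and all but *Pcdhb1* were above 0 in every library. Levels are given as TPM (a gene's share of a library's transcripts, corrected for gene length), rescaled between libraries. Over the 12 libraries 55 of the 58 members averaged at least 0.5 TPM. The median member was at 3.15 TPM, against 11.4 TPM for all genes at or above 0.5 TPM. Only 12 members averaged 5 TPM or more. The mean per-base read coverage behind these levels ran from 0.0920 for *Pcdhb1* to 72.8 for *Pcdhgc3*. The order of the members was similar in all libraries, with a Spearman correlation of 0.877 at the lowest and 0.937 at the median over the 66 pairs of libraries (58 genes each, a description across genes).

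**Figure D1:**
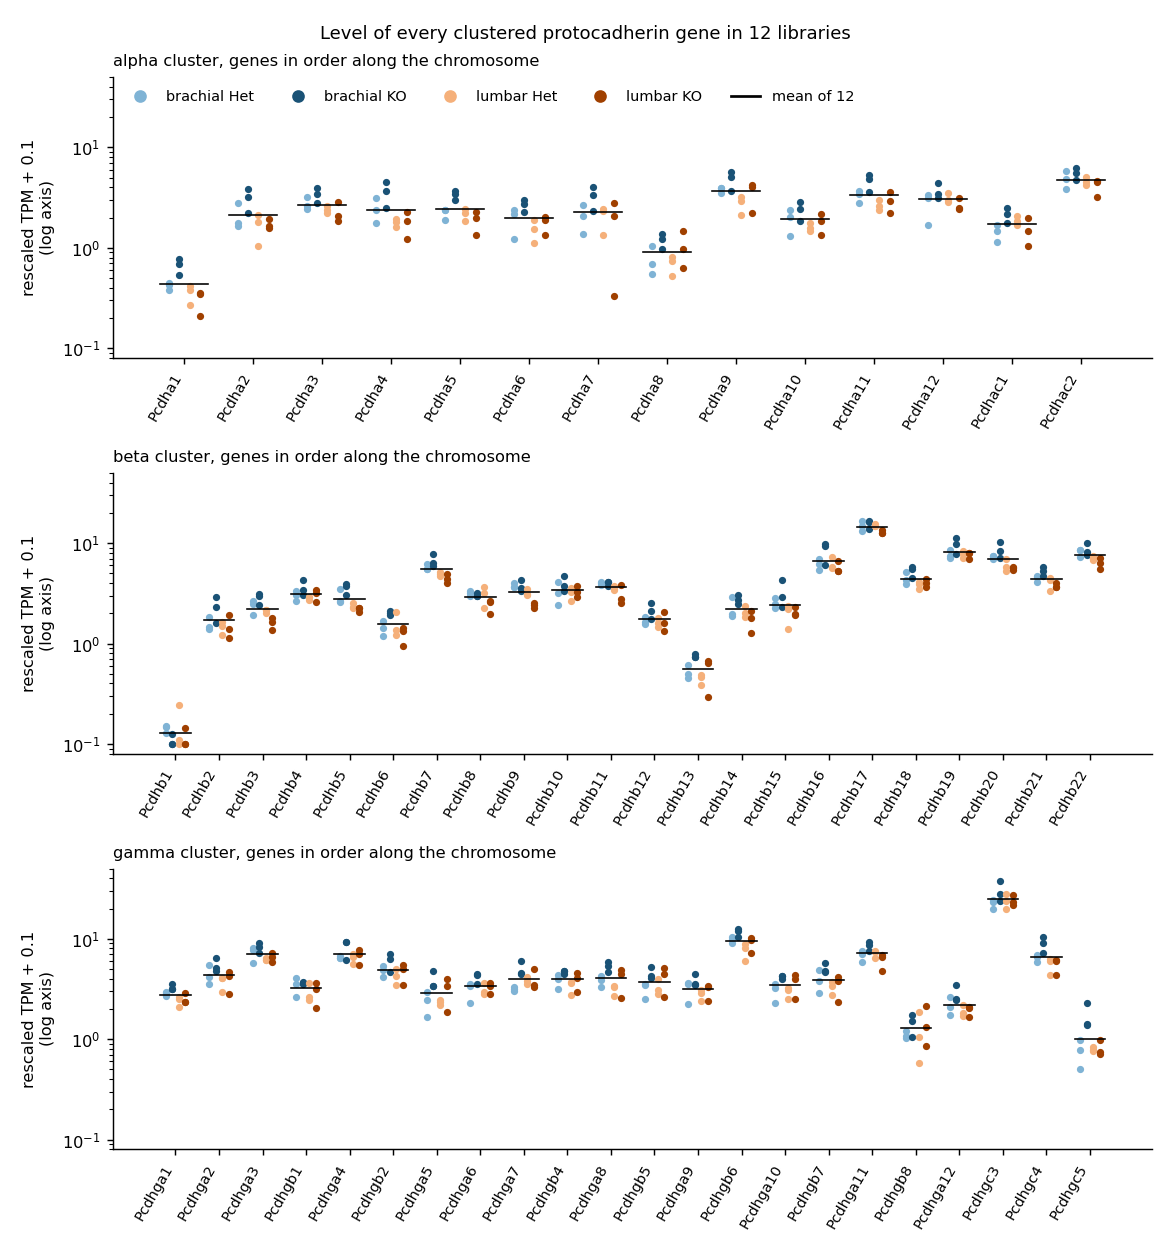
Rescaled TPM plus 0.1 (log axis) of the 58 members in their order along the alpha, beta and gamma clusters, with 1 point per library coloured by group and a bar at the mean of 12. *Pcdhgc3* stands highest, the beta genes from *Pcdhb16* on stand above most earlier ones, and *Pcdha1*, *Pcdhb1* and *Pcdhb13* stand lowest.

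The C-type genes ranged from 0.916 to 24.8 TPM. *Pcdhgc3*, known for promoting dendrite branching, was the highest member in 12 of 12 libraries, at 24.8 ± 4.75 TPM (SD, n = 12). It alone made up 9.11% to 13.2% of the summed TPM of the members. *Pcdhgc4*, the gamma gene needed for survival of spinal interneurons, was at 6.50 ± 1.72 TPM, and *Pcdhac2*, required for even spreading of serotonergic axons, at 4.67 ± 0.835 TPM. *Pcdhac1* was at 1.63 ± 0.415 TPM and *Pcdhgc5* at 0.916 ± 0.478 TPM. The C-type genes together took 15.1% to 18.3% of the members' TPM.

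The beta genes took 34.0% to 42.7% of the members' TPM, the largest share of any class. *Pcdhb17* (14.5 ± 1.46 TPM, n = 12) was the second highest member in 12 of 12 libraries, and its range of 12.4 to 16.4 TPM lay below that of *Pcdhgc3*, 19.6 to 37.1 TPM. *Pcdhb19* (8.06 ± 1.24 TPM) and *Pcdhb22* (7.43 ± 1.19 TPM) followed. The beta genes differed by position. The last 7 in the cluster, *Pcdhb16* to *Pcdhb22*, averaged 4.26 to 14.5 TPM with a median of 6.76 TPM, and gave 59.2% of the cluster's sum. The 15 before them averaged 0.0292 to 5.35 TPM with a median of 2.33 TPM and *Pcdhb7* highest. The Spearman correlation of position with mean TPM was 0.67 over the 22 beta genes, 0.37 over the 14 genes of the alpha cluster and -0.07 over the 22 of the gamma cluster, given as a description. *Pcdhb1*, the lowest member, averaged 0.0292 TPM and was listed at 0 in 5 libraries.

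Among the gamma genes, *Pcdhgb6* (9.42 ± 1.82 TPM, n = 12) was the third highest member in 11 of 12 libraries. Its range of 5.93 to 12.4 TPM overlapped those of the members next in order. It was followed in the gamma B class by *Pcdhgb2* (4.83 TPM) and *Pcdhgb4* (3.84 TPM), with *Pcdhgb8*, annotated in RefSeq as a transcribed pseudogene, lowest at 1.19 TPM. The gamma A class was the most even, from *Pcdhga12* at 2.098 TPM to *Pcdhga11* at 7.04, *Pcdhga3* at 6.93 and *Pcdhga4* at 6.87 TPM. The alpha class was lower, with *Pcdha9* at 3.62, *Pcdha11* at 3.25 and *Pcdha12* at 2.94 TPM on top and *Pcdha1* at 0.337 TPM at the bottom. Class medians were 2.22 TPM for alpha, 3.10 for beta, 3.61 for gamma A, 3.79 for gamma B and 4.67 TPM for the C-type genes.

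The gene structures limit how well single alpha and gamma genes can be told apart. In GENCODE M21 transcripts, 53.1% to 58.4% of the stretches of 100 bases in an alpha transcript also occurred in another member, and so did 40.7% to 44.5% for gamma A, 43.9% to 49.6% for gamma B and 41.1% to 51.9% for the C-type genes, since these share constant exons. For the beta genes the share was 0% to 7.73%. In the own exon alone the median share was 5.45% for alpha, 2.85% for gamma B and 0% for gamma A and the C-type genes. *Pcdhgb8* had no matched GENCODE transcript and is left out of these gamma B values. Reads in constant exons were divided among genes by the authors' assembly software. Beta values thus rest mostly on each gene's own sequence, and alpha and gamma values partly on that division.

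*Pcdha7* stood apart in 1 library. It was at 0.230 TPM in lumbar KO 1 against 1.24 to 3.92 TPM in the other 11 libraries. In that library *Gm38667*, a gene model that starts with *Pcdha7* and runs into the gamma cluster, was at 3.90 TPM, above its 0.311 to 2.39 TPM elsewhere. The low *Pcdha7* value gave it the widest interval of any member in the lumbar comparison, a log2 fold change of -0.67 with a 95% interval of -2.37 to 1.03. Whether reads were divided differently in that library was not tested, and the value was kept in the fits as measured.

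Spread between replicates also differed by class. The median SD within groups, on the log2 scale, was 0.343 for alpha, 0.310 for gamma B, 0.248 for the C-type genes, 0.235 for gamma A and 0.179 for beta. Over all 55 members it was 0.253, close to the 0.252 of the 3712 genes of like level, and above the 0.173 of all genes tested.

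At the brachial level most clustered protocadherins had higher values in KO than in Het, and few passed a test. Of 56 members tested 1, *Pcdhb13* (0.421 TPM in Het, 0.653 in KO), passed the filter of 0.5 TPM through its KO values alone and is set aside in the counts of directions and the medians. Of the other 55, 53 had a log2 fold change above 0 with a median of 0.32, where all 16775 genes tested had a median of -0.01 and 48% were above 0. The cut-off that the study set for lower genes, an unadjusted p under 0.05 with a log2 fold change of more than 0.5 in size, was applied here in both directions. By this threshold (limma) 7 of 56 members rose and 0 fell, where 2.21% of all genes passed as higher and 0.87% as lower. At an adjusted p under 0.05 (Benjamini-Hochberg over all genes) 0 members passed, and the background there was 0.00596% lower and 0% higher. At an unadjusted p under 0.05 alone 12 members were higher and 0 lower, against 6.71% and 7.18% of all genes. The 12 became 3 without brachial Het 3 (1.82% of all genes higher), 4 without KO 3 (2.65%), 6 without KO 2 (4.39%), 19 without Het 2 (6.44%) and 22 without KO 1 (12.37%). In 13 of the 55 members (23.6%) the 3 KO libraries all lay above the 3 Het libraries, against 9.68% of all genes, and in 0 members they all lay below (10.4% of all genes). With TPM as deposited, where the median of all genes was itself at 0.16, 17 members rose and 0 fell, beside 1211 genes higher and 47 lower in all against 371 and 146 after rescaling.

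*Pcdhgc5*, the last C-type gene of the gamma cluster, had the largest difference. It was at 0.877, 0.689 and 0.409 TPM in brachial Het and at 2.18, 1.31 and 1.29 TPM in brachial KO. All 3 KO libraries were above all 3 Het libraries, with KO 1 far above the other two. The log2 fold change was 1.17 ± 0.34 (SE, 3 against 3, limma adjusted p = 0.357). At the lumbar level it was at 0.734, 0.684 and 0.669 TPM in Het and 0.887, 0.606 and 0.653 TPM in KO, where the groups overlapped. *Pcdhga7*, a gamma A gene, had the largest difference relative to its error. It was at 3.19, 2.93 and 3.07 TPM in Het and 4.50, 4.38 and 5.84 TPM in KO, with no overlap and the Het libraries close together. Its log2 fold change was 0.65 ± 0.16 (SE, limma adjusted p = 0.357). These 2 calls held in 16 of 16 alternative settings, leaving out each library included.

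The other genes that rose were spread over the classes. *Pcdha5* was at 2.298, 2.29 and 1.80 TPM in Het and 2.90, 3.54 and 3.35 TPM in KO, *Pcdhac1* at 1.03, 1.58 and 1.39 against 1.65, 2.37 and 2.08 TPM, and *Pcdhga5* at 2.85, 2.35 and 1.57 against 3.28, 3.26 and 4.64 TPM. In each of these the KO libraries were above the Het libraries. Their log2 fold changes were 0.60, 0.58 and 0.72. *Pcdhb6* (1.33, 1.59 and 1.09 against 1.84, 1.93 and 1.99 TPM, log2 fold change 0.51) and *Pcdhgb5* (3.44, 3.33 and 2.42 against 3.95, 4.13 and 5.14 TPM, log2 fold change 0.52) did not overlap either, and lay near the threshold of 0.5. The call of *Pcdhb6* held in 6 of 16 alternative settings, that of *Pcdhac1* in 9 and that of *Pcdhgb5* in 10, while *Pcdha5* and *Pcdhga5* held in 14.

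**Figure D2:**
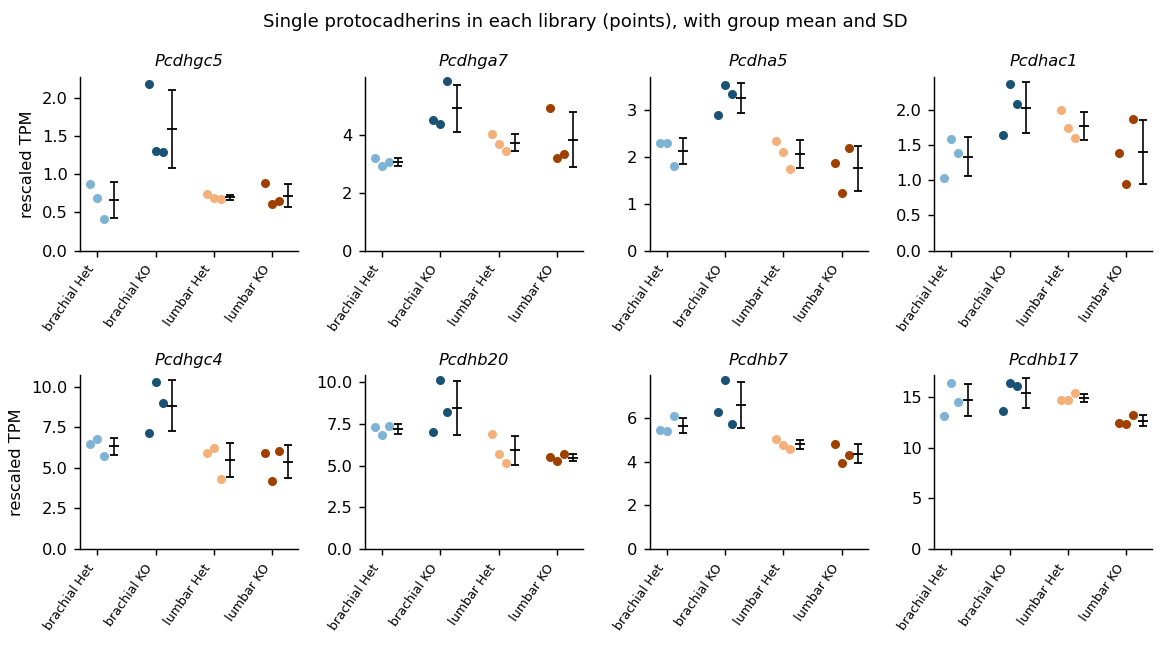
Rescaled TPM (linear axis from 0) of 8 members, with 1 point per library in the 4 groups and the group mean with its SD beside the points. *Pcdhgc5*, *Pcdhga7*, *Pcdha5* and *Pcdhac1* are higher in brachial KO than in brachial Het without overlap, while *Pcdhb7* lies lower in the lumbar than in the brachial libraries.

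The direction was shared by most genes of every class. The log2 fold change was above 0 in 11 of 11 alpha genes (median 0.52), 18 of 20 beta genes (median 0.25), 12 of 12 gamma A genes (median 0.36), 7 of 7 gamma B genes (median 0.32) and 5 of 5 C-type genes (median 0.46). The exceptions were *Pcdhb8* and *Pcdhb9*, at -0.04 and -0.02. *Pcdhgc3* was at 22.9, 24.0 and 19.7 TPM in Het and 23.5, 28.1 and 37.1 TPM in KO, where the groups overlapped (log2 fold change 0.39 ± 0.17, SE), and *Pcdhb17* at 13.2, 16.4 and 14.6 against 13.7, 16.4 and 16.1 TPM (log2 fold change 0.07). The summed TPM of all members was 226 ± 21.7 (SD, n = 3) in brachial Het and 284 ± 34.8 in brachial KO, a ratio of 1.26. *Pcdha1* and *Pcdhb1*, at means of 0.443 and 0.0252 TPM over the brachial libraries, were below the filter and were not tested.

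**Figure D3:**
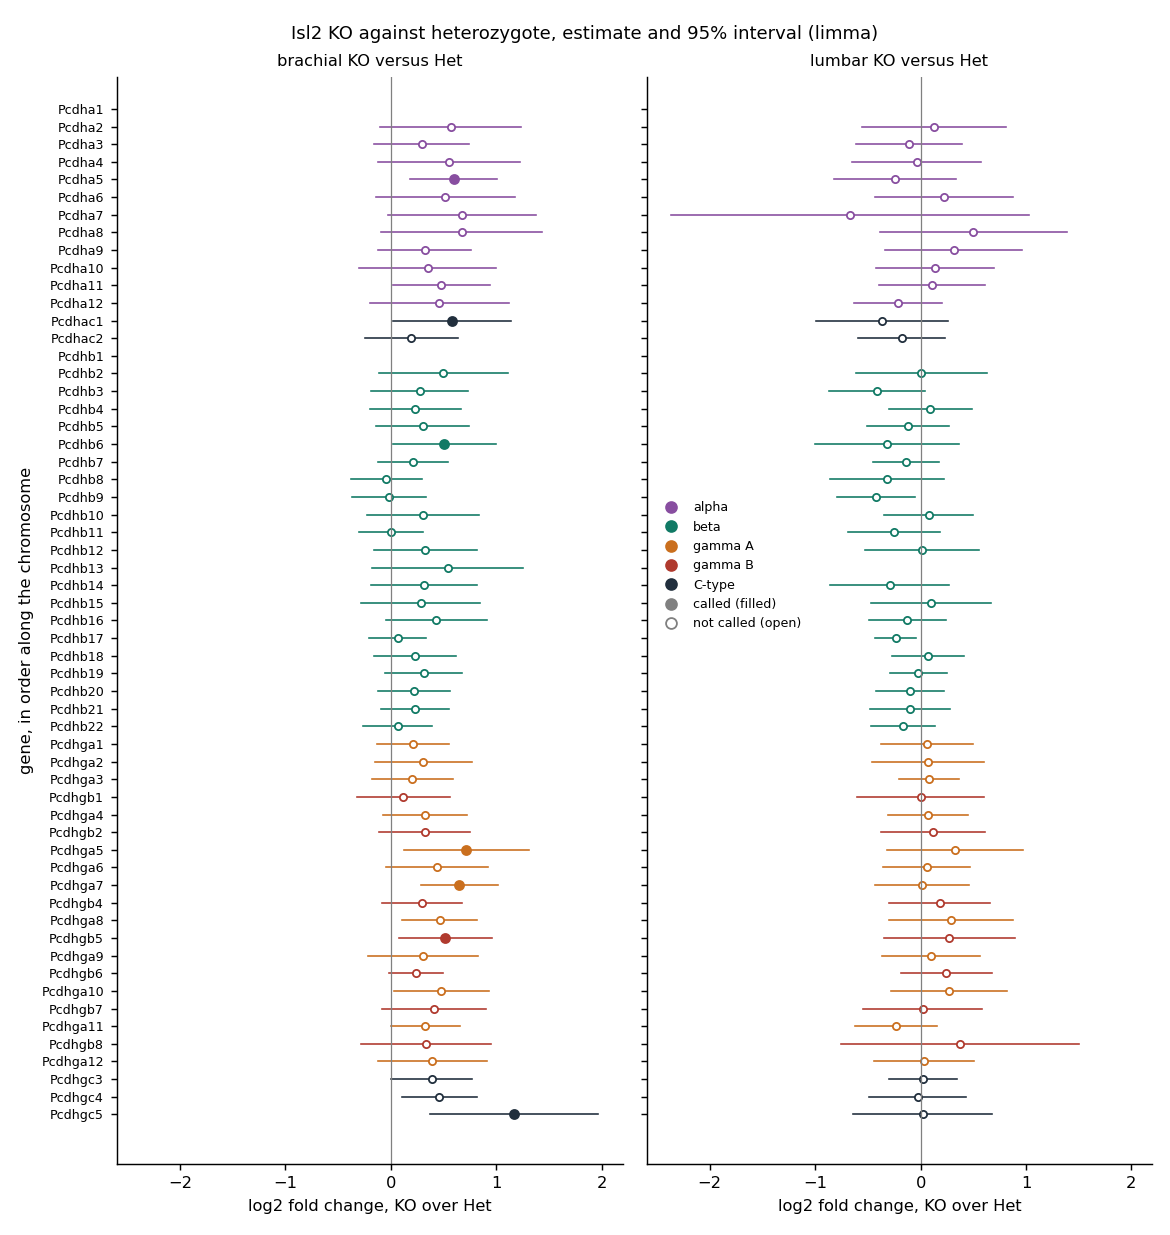
Log2 fold change of KO over Het with its 95% interval (limma) for each member in chromosome order, brachial on the left and lumbar on the right, with filled points for members past an unadjusted p of 0.05 and an absolute log2 fold change of 0.5. Nearly all brachial points lie right of 0, while the lumbar points lie on both sides and none is filled. A row without a point was below the filter.

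The libraries did not contribute equally. Relative to the Het mean, the 55 members at or above 0.5 TPM had a median log2 difference of 0.50 in brachial KO 2 and 0.42 in KO 3, but 0.13 in KO 1. They were above that mean in 55, 51 and 43 of 55 members, respectively. Within Het, replicate 2 lay above the Het mean (0.16) and replicate 3 below it (-0.17). The number of members that rose was 7 with all libraries, 2 without brachial Het 3 (*Pcdhgc5* and *Pcdhga7*, where 0.844% of all genes rose), 3 without KO 3 (these and *Pcdha5*, with 0.878% of all genes), 18 without Het 2 (3.30% of all genes) and 17 without KO 1 (6.23% of all genes). In its order over the libraries, the summed TPM of members went with the scaling. The 6 libraries with the highest summed TPM of members were the 6 with the highest size factors (the factor each library's TPM was divided by), and in 3 of the 4 groups the order of the libraries was the same by both. Size factors ran from 0.893 to 1.25, with brachial KO 2 highest, and 5 small RNAs took 23.7% of that library's TPM against 30.9% to 38.2% in the other 11 libraries. Brachial KO 3, the library with the least depth, also had the highest sum of blood markers (9 genes, 7107 TPM against 2462 to 5128 TPM in the others). All 9 blood markers had a log2 fold change above 0 in brachial KO, with a median of 0.48, and 0 passed the threshold. Of 12 neuron markers 9 had a log2 fold change above 0 in brachial KO (median 0.16) and 0 passed the threshold. In 5 of the 12 (41.7%) the KO libraries all lay above Het, against 9.68% of all genes. In 1, *Nefl* (8.33%), they all lay below, against 10.4% of all genes. The summed TPM of the neuron markers, in which *Tubb3* and *Nefl* weigh most, was lower in KO (5263 to 5409 against 5539 to 6132 TPM). The part of these differences in the protocadherin values was not tested.

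**Figure D4:**
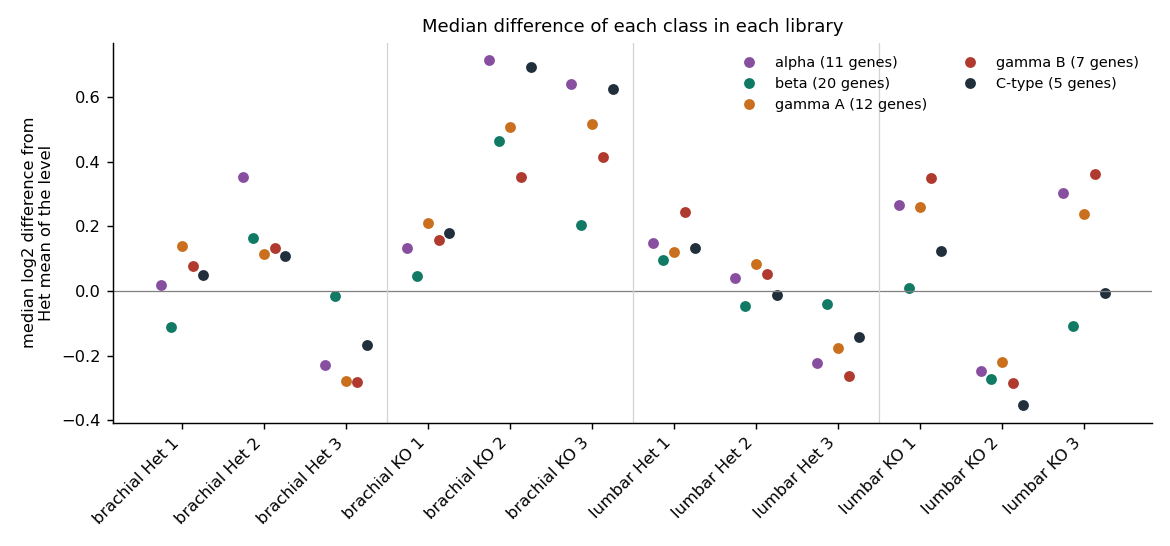
Median log2 difference of each class of members from the Het mean of the same level, 1 point per class in each of the 12 libraries. In the 3 brachial KO libraries all 5 classes stand above 0, least so in KO 1, in lumbar KO 2 all 5 stand below 0, and the classes mostly share a side within a library.

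At the lumbar level 0 members passed the threshold in either direction, where 0.98% of all 16629 genes passed as higher and 0.794% as lower. At an adjusted p under 0.05 no gene passed, members included (background 0% in both directions). The median log2 fold change of the 55 members tested was 0.02, with 32 above 0 (58.2%, against 47.4% of all genes). With 1 library left out the median ran from -0.08 to 0.14, below 0 without lumbar Het 3, KO 1 or KO 3, and the number above 0 from 15 without Het 3 to 36. At an unadjusted p under 0.05, 2 members were lower in KO (background 2.25%) and 0 higher (background 2.61%). One was *Pcdhb17*, at 14.8, 14.7 and 15.4 TPM in Het and 12.48, 12.4 and 13.3 TPM in KO. The groups did not overlap, and the log2 fold change was -0.23 ± 0.08 (SE, limma adjusted p = 0.999). The other was *Pcdhb9*, at 2.96, 3.42 and 3.00 TPM in Het and 2.45, 2.15 and 2.33 TPM in KO, also without overlap (log2 fold change -0.42 ± 0.16, SE). The number lower at this p became 0 without lumbar Het 1, Het 2, Het 3 or KO 2 (1.42% to 2.53% of all genes). It became 1 without KO 3 (1.87%), and 5 members were higher without KO 2 (3.80%).

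In 4 members, all of them beta genes (*Pcdhb3*, *Pcdhb5*, *Pcdhb9* and *Pcdhb17*), the lumbar KO libraries all lay below the Het libraries, 7.27% of members against 5.52% of all genes. In 0 members they all lay above (background 4.42%). The beta class as a whole had a median log2 fold change of -0.12 with 6 of 20 genes above 0. The other medians were 0.11 for alpha, 0.07 for gamma A, 0.18 for gamma B and -0.03 for the C-type genes. Without lumbar Het 3 these were -0.11, -0.01, -0.01 and -0.19. Without lumbar KO 2 gamma B was at 0.36 and the C-type genes at 0.04. The beta median stayed at -0.17 to -0.06 with any 1 library left out. The summed TPM was 210 ± 20.0 in lumbar Het and 209 ± 28.6 in lumbar KO (SD, n = 3). Lumbar KO 2 was the lowest library, with 3 of 55 members above the Het mean. Without it 5 members passed the threshold as higher, *Pcdha9*, *Pcdhga5*, *Pcdhga8*, *Pcdhga10* and *Pcdhgb5*, where 1.82% of all genes passed as higher. *Pcdha1*, *Pcdhb1* and *Pcdhb13* were below the filter at this level. Markers of cell types lay on either side of 0 in lumbar KO. Of 12 progenitor markers 10 had a log2 fold change above 0 (median 0.23), in 4 the KO libraries all lay above Het (4.42% of all genes) and 0 passed the threshold. Of 12 neuron markers 11 were below 0 (median -0.11) and 0 passed, of 11 motor neuron markers 10 were below 0 (median -0.26) and 1 passed, *Prph*, and of 9 blood markers 9 were above 0 (median 0.42) and 1 passed, the embryonic globin *Hba-x* (0.69). Their part in the protocadherin values was not tested.

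Whether the genotype difference differed between levels was tested as an interaction in all 12 libraries. No member passed an adjusted p of 0.05 (smallest adjusted p = 0.812, limma with Benjamini-Hochberg), and neither did any other gene (background 0% in both directions). At an unadjusted p under 0.05, 7 members passed, all with a lower KO over Het value at the lumbar than at the brachial level, against 2.14% of all genes in that direction and 2.27% in the other. They were *Pcdhgc5* (log2 difference of differences -1.15 ± 0.42, SE), *Pcdhac1* (-0.94 ± 0.36), *Pcdha5* (-0.84 ± 0.30), *Pcdhb6* (-0.83 ± 0.35), *Pcdhb3* (-0.69 ± 0.26), *Pcdhga7* (-0.64 ± 0.25) and *Pcdhga11* (-0.56 ± 0.23). The log2 fold change of *Pcdhgc5* and *Pcdhga7* was near 0 at the lumbar level (0.02 for each), and that of the other 5 was above 0 in the brachial and below 0 in the lumbar comparison. The value was below 0 in 53 of 55 members with a median of -0.33, against a median of 0.00 over all genes. Without lumbar KO 2 it was below 0 in 46 of 55 with a median of -0.18 (-0.25 to -0.43 with any other library left out). The 7 members became 3 without lumbar KO 2 (1.38% of all genes in that direction) or lumbar Het 1 (0.963%), 4 without brachial Het 1 (1.496%) or brachial KO 2 (1.30%), and 11 without brachial Het 2 (2.73%) or brachial KO 1 (6.22%). No member had genotypes without overlap in the same direction at both levels. Among all genes, lack of overlap was already uncommon in each comparison alone. The shares were 9.68% higher and 10.4% lower for brachial KO, and 4.42% and 5.52% for lumbar KO. A count of 0 members therefore does not show that the levels differ.

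Comparing levels over all 12 libraries with genotype as a covariate, the values of the members were lower in the lumbar than in the brachial cord, though most did not pass the test. The log2 difference was below 0 in 55 of 55 members (54 of 55 with quantile normalization, 51 of 55 without lumbar KO 2 and 42 of 55 in the Het libraries alone) with a median of -0.31, against a median of 0.01 over all 16706 genes tested, of which 52.2% were above 0. At an adjusted p under 0.05, 10 members fell and 0 rose, 18.2% of the members against 9.62% of all genes lower and 8.91% higher. With TPM as deposited, where the median of all genes was at -0.13, 11 members fell, beside 2214 genes lower and 646 higher in all against 1607 and 1488 after rescaling. At an unadjusted p under 0.05, 26 members were lower (background 16%), and 17 without brachial KO 2 (13.4% of all genes) or lumbar KO 2 (14.6%). In 2 members, *Pcdhb5* and *Pcdhb7*, the 6 lumbar libraries all lay below the 6 brachial ones, 3.64% against 4.66% of all genes, and in 0 they all lay above (background 3.65%).

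Of the genes that fell, 6 were beta genes. *Pcdhb20* had the smallest adjusted p, at 7.30, 6.83 and 7.40 TPM in brachial Het, 6.996, 10.2 and 8.23 in brachial KO, 6.88, 5.72 and 5.16 in lumbar Het and 5.503, 5.26 and 5.70 TPM in lumbar KO. The highest lumbar library came just above the lowest brachial one. The log2 difference was -0.44 ± 0.11 (SE, 6 against 6, limma adjusted p = 0.0134). *Pcdhb7*, at 5.43 to 7.76 TPM in the brachial and 3.94 to 5.02 TPM in the lumbar libraries, differed by -0.41 ± 0.10 (adjusted p = 0.0152), and *Pcdhb5*, at 2.47 to 3.80 against 1.95 to 2.44 TPM, by -0.48 ± 0.13 (adjusted p = 0.0190). Neither overlapped between levels. *Pcdhb9* (-0.42), *Pcdhb3* (-0.49) and *Pcdhb22* (-0.32) fell with overlapping libraries. The calls of *Pcdhb20*, *Pcdhb7* and *Pcdhb9* held when each of the 12 libraries was left out in turn. The number of members that fell was then 3 to 13 (6.69% to 10.9% of all genes), with these 3 alone left without brachial Het 2 and without brachial KO 2, 4 without lumbar KO 2, 5 without brachial KO 3, and 6 without lumbar Het 3 and without lumbar KO 3. Brachial and lumbar libraries came from the same animals, and which library belongs to which animal is not given. With the replicate number as a block 2 members fell, *Pcdhb20* and *Pcdhgb6* (background 7.75% lower and 6.18% higher), so the calls of *Pcdhb7*, *Pcdhb5* and *Pcdhb9* were lost there.

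The remaining calls were *Pcdha4* (log2 difference -0.70 ± 0.21, SE) and *Pcdha11* (-0.49 ± 0.15) of the alpha genes, *Pcdhgb6* (-0.37 ± 0.11) of gamma B and the C-type gene *Pcdhgc4* (-0.46 ± 0.14). *Pcdhgc4* was at 6.48, 6.75 and 5.76 TPM in brachial Het, 7.16, 10.3 and 8.995 in brachial KO, 5.93, 6.23 and 4.29 in lumbar Het and 5.90, 4.21 and 6.03 TPM in lumbar KO. Its brachial KO libraries were the highest and stood above all others. The gamma A class had 0 of 12 genes called, with a median of -0.22. The other class medians were -0.48 for alpha, -0.32 for beta, -0.29 for gamma B and -0.24 for the C-type genes. Without lumbar KO 2 the medians were nearer 0, at -0.13 for gamma A, -0.18 for gamma B and -0.15 for the C-type genes.

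The difference between levels is given for each genotype, and whether it differed between genotypes is the interaction above, in which 0 of 55 members passed an adjusted p of 0.05. In the Het libraries alone 42 of 55 members were lower in the lumbar cord with a median of -0.14 (46.4% of all genes were lower), and 0 passed an adjusted p of 0.05 (1.97% of all genes passed as lower, 0.968% as higher). In the KO libraries alone 55 of 55 were lower, leaving out *Pcdhb13*, which passed the filter there through its brachial values alone, with a median of -0.44 (49.4% of all genes were lower), and again 0 passed (0.959% and 0.816% of all genes). At an unadjusted p under 0.05, 2 members were lower in Het (9.88% of all genes) and 23 in KO (11.6% of all genes). *Pcdhac1*, *Pcdhgc3* and *Pcdhgc5* had values above 0 in Het (0.40, 0.08 and 0.12) and below 0 in KO. *Pcdhgb6* was the one called member with nearly the same value in both, -0.37 in Het and -0.37 in KO. The summed TPM of members gave the same order, with 226 in brachial Het, 210 in lumbar Het and 209 in lumbar KO lying within 1 SD of each other and 284 in brachial KO above them. The single brachial KO libraries (244 to 308 TPM) overlapped those of brachial Het (205 to 248 TPM).

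**Figure D5:**
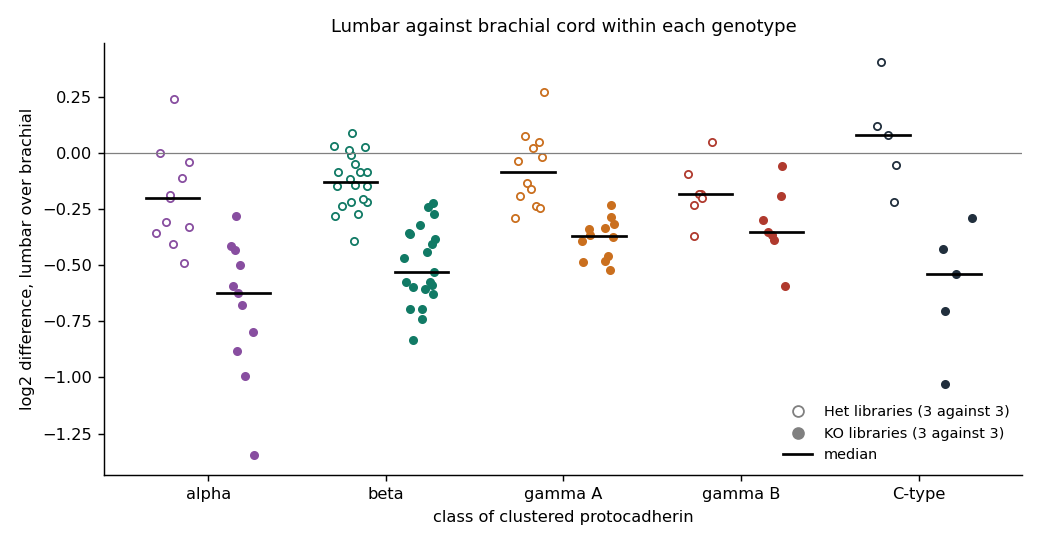
Log2 difference of lumbar over brachial libraries for each member by class, with open points for the Het libraries and filled points for the KO libraries (3 against 3 each) and a bar at the median. The KO points all lie below 0, while 13 of the 55 Het points lie above 0.

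Markers of cell types also differed between levels at an adjusted p under 0.05 (background 9.62% lower and 8.91% higher). Of 12 progenitor markers 9 rose in the lumbar cord, among them the cell cycle genes *Top2a* (log2 difference 0.98) and *Ccnb1* (0.95), and 2 fell, *Fabp7* (-0.40) and *Olig2* (-0.73), with a median of 0.46. Their summed TPM, in which *Fabp7* weighs most, overlapped between levels (2726 to 3317 lumbar, 2616 to 3540 brachial). Of 12 neuron markers 4 fell, *Snap25* (-0.45), *Nefm* (-0.42), *Snap91* (-0.41) and *Syt1* (-0.35), and 0 rose, with 11 below 0, a median of -0.13 and overlapping sums (4702 to 5977 against 5263 to 6132 TPM). Of 11 motor neuron markers 2 fell, *Prph* (-2.62) and the choline transporter *Slc5a7* (-1.10), and 0 rose, while 7 were above 0 (median 0.14), so the lower lumbar sum (234 to 388 against 499 to 562 TPM) came mostly from *Prph*. Of 6 endothelial markers 4 fell (median -0.39, summed 49.7 to 63.0 against 61.5 to 83.3 TPM), and so did 5 of 8 microglial markers (median -0.70, summed 11.8 to 22.8 against 23.4 to 38.1 TPM). All markers of these lists were detected. Of 10 dorsal interneuron markers 2 fell, *Barhl2* (-0.96) and *Barhl1* (-0.91), and 1 rose, *Lhx9* (0.95). Of 6 mesenchyme and cartilage markers tested 3 fell, *Pdgfra* (-1.47), *Col1a2* (-0.64) and *Dcn* (-0.35), and of 5 crest and Schwann markers tested 2 fell, *Erbb3* (-1.65) and *Fabp7*, which is also in the progenitor list. Of 5 floor plate, 5 sensory neuron and 9 blood markers tested 0 passed (limma), and at an unadjusted p under 0.05 the numbers were 1, 1 and 0. The part of cell composition in the lower lumbar protocadherin levels was not tested.

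The delta protocadherins, homophilic adhesion molecules encoded one by one outside the clusters, mostly had lower values in the lumbar cord as well. Of 10 genes 7 fell and 0 rose at an adjusted p under 0.05 (9.62% and 8.91% of all genes), with a median log2 difference of -0.40. *Pcdh19*, which acts with N-cadherin, differed by -0.90 ± 0.19 (SE), *Pcdh11x* by -0.73 ± 0.15, *Pcdh10* by -0.64 ± 0.10 and *Pcdh20* by -0.49 ± 0.10, followed by *Pcdh9* (-0.42), *Pcdh7* (-0.38) and *Pcdh8* (-0.30). The other 3 did not pass, and *Pcdh18* was above 0 (0.17). In 6 of the 10 the lumbar libraries all lay below the brachial ones (4.66% of all genes). The highest were *Pcdh7* at 54.3, *Pcdh10* at 34.9, *Pcdh8* at 27.0 and *Pcdh9* at 21.7 TPM, of which only *Pcdh9* lay below *Pcdhgc3*. In KO against Het 0 of 10 passed the threshold at either level, with median log2 fold changes of 0.16 (brachial) and -0.11 (lumbar).

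Genes known to govern the choice of protocadherin promoters or the DNA methylation of those promoters formed a list of 21. The highest were the cohesin subunits *Rad21* (83.1 TPM), *Smc1a* (76.1 TPM) and *Smc3* (66.7 TPM) and the maintenance methyltransferase *Dnmt1* (75.6 TPM). In brachial KO 2 of 21 rose by the threshold (2.21% of all genes), *Tet3* (log2 fold change 0.70, 12.01 TPM in Het and 20.1 in KO) and *Tet1* (0.59, 6.71 and 10.4 TPM), both enzymes that oxidise methylated cytosine. *Ctcf*, the insulator protein that joins protocadherin promoters to their enhancers, had a log2 fold change of 0.11 (limma adjusted p = 0.426) and *Smchd1*, a silencer of the clusters, of 0.04. In the lumbar comparison 0 of 21 passed. Between levels 3 of 21 rose in the lumbar cord at an adjusted p under 0.05 (8.91% of all genes), by small amounts: the cohesin release factor *Wapl* (0.18), its partner *Pds5a* (0.21) and *Dnmt1* (0.15).

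Of 19 tested partners and effectors of the proteins, *Marcks* (335 TPM), *Brk1* (147 TPM), *Rac1* (132 TPM) and *Nckap1* (129 TPM) were the highest. *Cyfip2*, a subunit of the WAVE complex that alpha and delta protocadherins bind, was the single one past the threshold in brachial KO (log2 fold change 0.53, 31.1 TPM in Het and 45.4 in KO), where 2.21% of all genes passed as higher. In lumbar KO 0 passed. Between levels 1 of 19 fell and 1 rose at an adjusted p under 0.05 (9.62% and 8.91% of all genes), the kinase *Fyn* by -0.16 on the log2 scale and the focal adhesion kinase *Ptk2*, which protocadherins inhibit, by 0.14.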

How the data were processed

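Total RNA of the trimmed ventral spinal cord was sequenced in 12 libraries, and their groups and replicate numbers follow the labels. Per the labels the authors used FastQC 0.11.7, Trimmomatic 0.38, HISAT2 2.1.0, Bowtie2 2.3.4.1 and StringTie 2.1.3b with the mm10 build. The authors' StringTie run gave the deposited TPM of each gene in each library. The deposited FPKM values come from the same run of the authors and were used only to read depth. The deposited coverage values give the mean per-base coverage of a gene. There were no counts, so the count test named in the study's methods was not run, and counting error is unknown. Coverage and FPKM of members agreed within 1% of 1 constant per library in 685 of 685 values above 0.05 FPKM, and this constant was read as aligned bases.

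Symbols and gene types came from RefSeq for GRCm38.p6, which gave all 58 members the same coordinates as the tables. TPM was divided by median-of-ratios size factors over the 12 libraries, 0.1 was added, and log2 values of genes with a mean of at least 0.5 TPM entered linear models (limma 3.58.1, R 4.3.3, eBayes with trend), with adjustment over all genes tested (Benjamini-Hochberg). Fold changes on this scale understate changes of low genes. KO was compared with Het within each level (6 libraries), and level and interaction over all 12. The study's methods give 3 animals of each genotype for both levels, so brachial and lumbar libraries share animals. Which libraries share one is not given, and the p-values between levels treat the 12 libraries as separate. The fits were tested on simulated data.

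The members and gene lists were chosen with earlier results of these data known. Named are the C-type genes, the 3 highest and the lowest of each other class, all members called, those next to the filter, and of the other lists the genes called and up to 4 highest. *Pcdha7*, *Pcdhb7*, *Pcdhb8*, *Pcdh18*, *Ctcf*, *Smchd1*, the cell type markers and the members past an unadjusted p alone were named after their values were seen. Just above the filter over 12 libraries were *Pcdha8* (0.817 TPM) and *Pcdhgc5* (0.916 TPM), and just below *Pcdhb13* (0.463 TPM) and *Pcdha1* (0.337 TPM). Alternatives were other pseudocounts, filters and scalings, coverage, no trend, 1 genotype at a time, a replicate block and each library left out. The block was the replicate number for KO against Het, and genotype with replicate number for level and interaction. One list of cell type markers is not reported here.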

Additional observations from a re-analysis of the deposited data

How the results depend on the processing

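The 7 members higher in brachial KO became 3 with a pseudocount of 1 (*Pcdhga5*, *Pcdhga7* and *Pcdhgc5*, with 1.49% of all genes higher) and 17 with TPM as deposited, where 56 of 56 members were above 0 and 1211 genes were higher and 47 lower in all, against 371 and 146 after rescaling. Leaving out 1 library gave 2 to 18. For lumbar KO the number of members called higher was 0 to 5 when 1 library was left out, with 5 only without lumbar KO 2. The 10 members lower in the lumbar cord became 4 with no filter (*Pcdhb5*, *Pcdhb7*, *Pcdhb9* and *Pcdhb20*, with 4.88% of all genes lower), 2 with the replicate block (*Pcdhb20* and *Pcdhgb6*), 0 in Het libraries only and 0 in KO libraries only, and 3 to 13 with 1 library left out, with 3 without brachial Het 2 or brachial KO 2, 4 without lumbar KO 2, 5 without brachial KO 3 and 6 without lumbar Het 3 or lumbar KO 3. As deposited, 2214 genes were lower and 646 higher in the lumbar cord, against 1607 and 1488 after rescaling. The cause of these shifts was not tested.

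Deviations of same-numbered libraries correlated at -0.21 to 0.23 between genotypes and -0.21 to 0.34 between levels, not above 0.1 in every pair, so the numbers were not used as pairs. With the replicate block 7 members were again higher in brachial KO, but *Pcdhb6* and *Pcdhgb5* lost the call and *Pcdha2* and *Pcdha7* gained it, and the lumbar comparison and the interaction stayed at 0. Under each scaling (as deposited, quantile, coverage) 53 to 56 of 56 or 57 members tested (*Pcdhb13* included) were above 0 in brachial KO and 1 at most was above 0 between levels. Of 1154 values of single members under alternatives 1002 kept their direction and call, 110 lost the call and 29 gained it. The remaining 13 changed direction, all in members not called in that comparison. Depth limits the low genes most, and *Pcdhb1* and *Pcdha1* were too low to test.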
